A study of Homo sapiens with 6 samples.

Results

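Of the 9585 promoters that the authors listed in BE(2)-C neuroblastoma cells, 582 (6.07%) had the start site of another listed gene at 1000 bp or less on the same chromosome, and these closely paired promoters are described here. They were found by pooling a table of 3254 promoters named as N-Myc-binding with a table of 6331 named as non-binding, and by taking the second coordinate of each row as the transcription start site (TSS) on hg19. The 582 promoters formed 291 pairs, and no group of 3 or more promoters arose at this limit. The measurement was H3K4me3, the histone H3 lysine 4 trimethylation found at active promoters, by chromatin immunoprecipitation and sequencing (ChIP-seq). BE(2)-C is an established human cell line from a neuroblastoma, a tumour of the peripheral nervous system, and it carries amplified MYCN, the gene of the transcription factor N-Myc. One H3K4me3 library came from cells with a control siRNA and 1 from cells with WDR5 siRNA-1, each sampled after 24 h. WDR5 is a shared subunit of the MLL/SET methyltransferase complexes that trimethylate this lysine. The series also holds 1 IgG and 1 input library per siRNA, which were not used here. All 6 libraries came from the 1 cell line, no siRNA has a replicate, and knockdown of WDR5 was not measured in the files used here.

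Genes that lie head to head, transcribed away from each other from start sites less than 1 kb apart, make up a well-known class of human promoters. A single CpG-rich stretch lies between the start sites, usually without a TATA box, and H3K4me3 nucleosomes flank it on either side. Genes for DNA repair, mitochondrial proteins and other housekeeping functions are well represented in this class. N-Myc, as a dimer with MAX, binds E-boxes, with CACGTG as the preferred form.

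The bases between the start sites are shown for 6 pairs, because in a pair this short stretch is all the DNA that separates the genes. Sequences are from RefSeq promoter windows of GRCh38.p14, read 5′ to 3′ from the start of the left gene to the start of the right gene, and their length differed from the deposited hg19 distance by at most 18 bp. Capitals mark, on either strand, the E-box (CACGTG), the CCAAT box (CCAAT), an ETS-type motif (CCGGAAG), the TATA motif (TATAAA), a part of the NRF1 motif (GCATGCG) and the GC box (GGGCGG). SMYD4/RPA1 and NDUFA7/RPS28 were N-Myc-binding pairs listed with H3K4me3 peaks in both libraries.
SMYD4/RPA1 (chr17:1829903-1830004, plus strand): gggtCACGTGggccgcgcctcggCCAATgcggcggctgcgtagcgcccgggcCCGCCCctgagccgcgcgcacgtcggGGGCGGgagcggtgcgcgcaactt
NDUFA7/RPS28 (chr19:8321376-8321495, plus strand): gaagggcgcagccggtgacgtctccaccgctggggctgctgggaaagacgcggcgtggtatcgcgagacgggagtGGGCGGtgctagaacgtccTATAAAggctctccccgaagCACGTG
COL4A1/COL4A2 was a non-binding pair listed in both libraries.
COL4A1/COL4A2 (chr13:110307158-110307283, plus strand): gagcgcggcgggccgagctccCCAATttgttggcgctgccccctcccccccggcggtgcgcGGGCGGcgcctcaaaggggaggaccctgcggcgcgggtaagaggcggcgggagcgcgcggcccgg
PYY/NAGS and CHDH/IL17RB were non-binding pairs listed with control siRNA only.
PYY/NAGS (chr17:44004446-44004621, plus strand): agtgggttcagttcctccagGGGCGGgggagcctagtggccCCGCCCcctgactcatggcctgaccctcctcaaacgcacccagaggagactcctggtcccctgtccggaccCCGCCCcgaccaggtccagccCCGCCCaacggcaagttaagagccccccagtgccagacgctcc
CHDH/IL17RB (chr3:53846420-53846567, plus strand): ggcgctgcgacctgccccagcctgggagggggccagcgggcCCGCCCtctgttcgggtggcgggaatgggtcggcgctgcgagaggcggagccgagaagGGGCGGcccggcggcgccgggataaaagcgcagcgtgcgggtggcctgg
ABCG5/ABCG8 was a non-binding pair listed in neither library.
ABCG5/ABCG8 (chr2:43838840-43838970, plus strand): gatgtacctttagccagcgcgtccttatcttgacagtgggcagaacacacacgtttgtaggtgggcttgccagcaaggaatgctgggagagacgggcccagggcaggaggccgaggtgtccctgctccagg
The pairs were picked as examples of each class and call, and their motifs do not stand for the rest. Such a stretch was found for 104 pairs. CACGTG occurred in 8 of 72 N-Myc-binding and in 1 of 32 non-binding stretches, ATG3/SLC35A5 being the latter. The agreement within 18 bp holds for the 6 pairs shown and not for all 104. The longest of these had 244 bases (POLE/PXMP2), a length bounded by the limit of the search. GART/SON had 148 bases against a deposited 886 bp, although other RefSeq starts of these genes lay 921 bp apart. A stretch can thus lie between other starts than the deposited ones. Among those with CACGTG, SMYD4/RPA1 had 102 bases against 98 bp. ATG3/SLC35A5 had 82 against 372 bp, C2orf76/DBI 213 against 571 bp and CCDC115/IMP4 215 against 567 bp. The RefSeq starts nearest to the deposited distances lay 642, 563 and 589 bp apart, respectively, so these stretches lie between other starts. NDUFA7/RPS28 was the only one of the 104 with TATAAA. The ABCG5/ABCG8 stretch held 5 CpG dinucleotides and none of the 6 marked motifs. The COL4A1/COL4A2 stretch held 20 CpG dinucleotides.

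The distance between partners ran from 1 bp to 974 bp, with a median of 161 bp and quartiles of 67 and 321 bp. The closest partners were SGSH and SLC26A11, 1 bp apart. The listed start sites crowded at short range, with 106 pairs at 100 bp or less, 61 over 100 and up to 200 bp, 43 up to 300 bp, 42 up to 500 bp and 39 up to 1000 bp. Beyond the limit, only 16 neighbouring pairs lay between 1 and 2 kb apart. The density thus went from 106 pairs per 100 bp in the first bin to 7.80 in the last bin within the limit and to 1.60 between 1 and 2 kb. Pairs occurred on 23 chromosomes, 13 of them on the X chromosome.

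**Figure D1:**
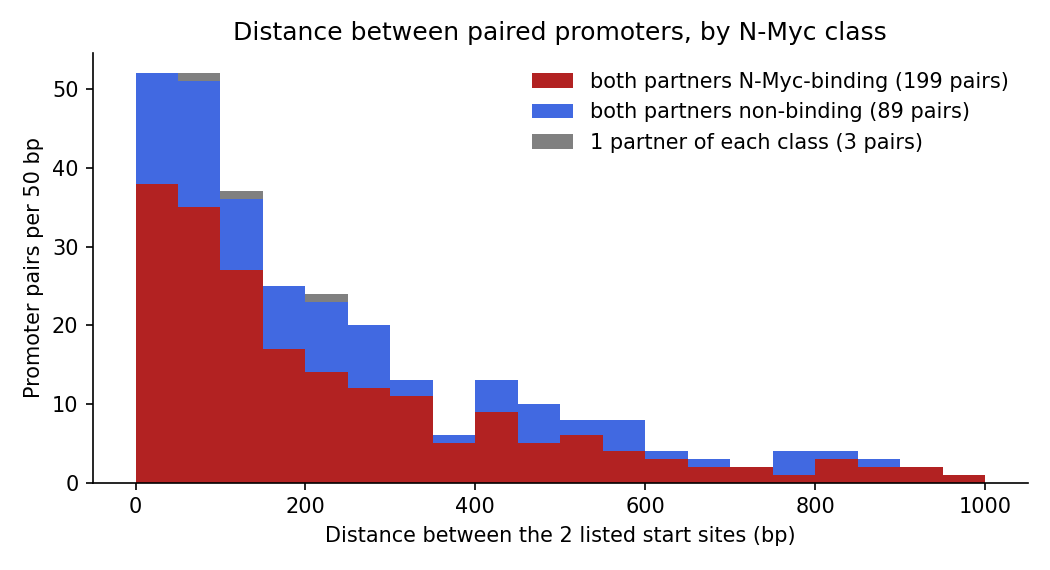
Number of promoter pairs (vertical axis, per 50 bp) against the distance between the 2 listed start sites (horizontal axis, bp), stacked by N-Myc class of the partners. Most pairs lie to the left, with a median of 161 bp, and pairs with both partners in the N-Myc-binding table (199) outnumber those with both in the non-binding table (89) in the pooled set.

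A RefSeq promoter window, and with it a strand, was found for both genes of 222 pairs. In all 222 the genes were on opposite strands with their start sites head to head, and no pair on the same strand was found. Whether starts lay apart was read from the order of the deposited start sites and the RefSeq strand. On this basis, 179 pairs had start sites apart, with a stretch between the genes (median deposited distance 135 bp). In 43 pairs the transcripts overlapped at their 5′ ends (median deposited distance 149 bp). Of the 222 pairs, 219 were also within 1 kb in RefSeq, and 95 had a RefSeq distance within 50 bp of the deposited one. The orientation of the other 69 pairs was not determined here.

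The partners of a pair always had the same peak calls. A promoter was scored as listed with a siRNA when its gene name stood in the authors' list for that library, which names the genes with a peak no more than 1 kb from their TSS. Of the 291 pairs, 275 had both genes in both lists, 9 had both genes in the control list only, 7 had both genes in neither list, and 0 had unlike calls. Of all 9585 promoters, 62.4% were listed in both libraries. Agreement of partners was 291 of 291 (exact 95% interval 98.7% to 100%). The windows of partners overlap by 1026 to 1999 bp, so a single peak can name both genes, and the agreement is not independent evidence about each gene. No pair joined a gene that had lost its listing with WDR5 siRNA-1 to a gene that had kept it.

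Agreement was lower beyond the limit. Among neighbouring start sites 1 to 2 kb apart, 13 of 16 had the same call (81.2%, 54.4 to 96.0). At 2 to 5 kb, where the windows of neighbours no longer overlap, 41 of 80 had the same call (51.2%, 39.8 to 62.6). The share was 66.5% (113 of 170) at 5 to 10 kb and 62.2% (1073 of 1726) at 10 to 50 kb. Where at least 1 neighbour was control only, both were in 9 of 9 pairs within the limit, in 1 of 2 at 1 to 2 kb, in 0 of 14 at 2 to 5 kb, in 3 of 17 at 5 to 10 kb and in 17 of 257 at 10 to 50 kb. These counts are descriptions, since neighbours farther out differ from pairs also in class and in how often they were listed at all.

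The values on either side of the limit were as follows. The last pairs inside were AP4S1/STRN3 and TBC1D17/AKT1S1, each 931 bp apart, and TXNDC9/EIF5B at 974 bp, all listed in both libraries. The first outside were SART3/ISCU at 1129 bp, listed in both libraries, and PUS3/DDX25 at 1145 bp, whose genes were both control only. The 3 neighbours with unlike calls between 1 and 2 kb were PIH1D1/ALDH16A1 at 1358 bp, with ALDH16A1 control only, FKBP14/PLEKHA8 at 1560 bp, with FKBP14 listed only with WDR5 siRNA-1, and TTC23/LRRC28 at 1837 bp, with TTC23 in neither list.

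**Figure D2:**
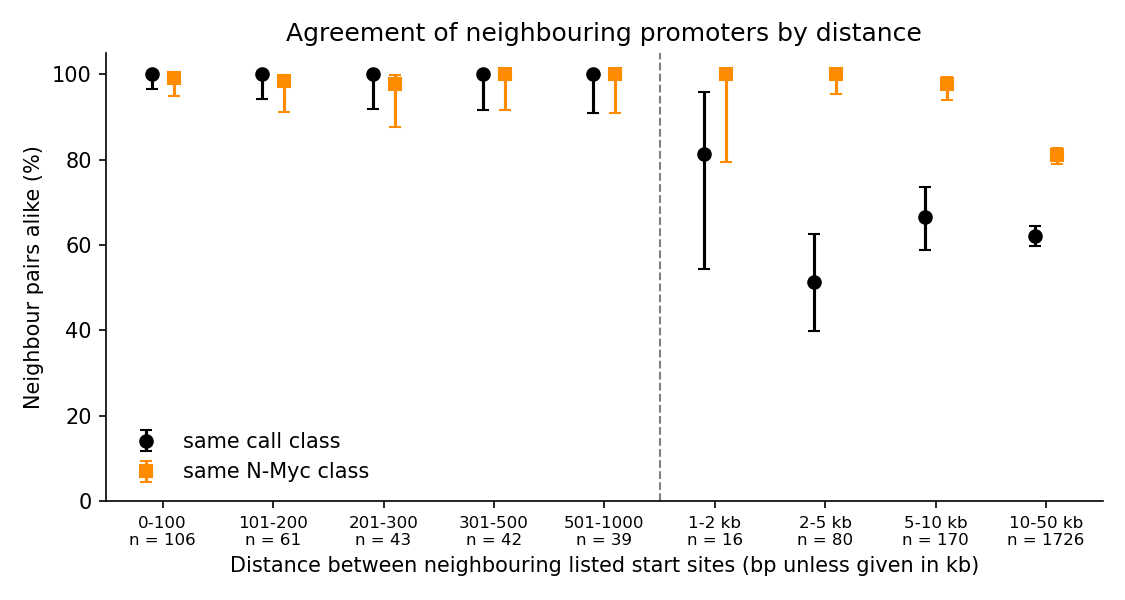
Share of neighbouring promoter pairs that were alike (vertical axis, %) by distance between their start sites (horizontal axis, in bins with the number of pairs), for the peak call (black circles) and the N-Myc class (orange squares), with exact 95% intervals that cover counting only. The dashed line is the 1 kb limit: call agreement is 100% in the 5 bins to its left and 81.2% or lower to its right, while class agreement stays at 97.6% or higher up to 10 kb.

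The N-Myc class was shared nearly as often. Both partners were N-Myc-binding in 199 pairs and both non-binding in 89, so that 288 of 291 pairs (99.0%, 97.0 to 99.8) were of 1 class. The class was also shared by 16 of 16 neighbours at 1 to 2 kb, 80 of 80 at 2 to 5 kb, 166 of 170 at 5 to 10 kb (97.6%) and 1398 of 1726 at 10 to 50 kb (81.0%). The labels and file headers do not say how N-Myc binding was decided, and a binding region that spans both start sites could class both genes at once.

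The 3 pairs with unlike classes were all at 219 bp or less and all listed in both libraries. NDUFA1, a subunit of respiratory complex I, was in the N-Myc-binding table (chromosome X, 119005734), and its partner RNF113A, a spliceosomal ring finger protein, 57 bp away, in the non-binding table. RGL1, a Ral guanine nucleotide exchange factor, was N-Myc-binding and stood 132 bp from ARPC5, a subunit of the actin-nucleating Arp2/3 complex, which was non-binding. RQCD1, a component of the CCR4-NOT deadenylase complex, was N-Myc-binding and stood 219 bp from USP37, a deubiquitinase, which was non-binding.

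N-Myc-binding promoters made up 401 of the 582 paired promoters (68.9%, 65.0 to 72.6), against 2853 of the 9003 other promoters (31.7%, 30.7 to 32.7). The interval for paired promoters counts partners as separate units and is too narrow, since 288 of 291 pairs were of 1 class. With pairs as units, both partners were N-Myc-binding in 199 of 291 (68.4%). Among promoters listed with control siRNA the shares were 70.6% (401 of 568) and 43.4% (2686 of 6194). The higher N-Myc-binding share of the pairs was therefore smaller in size, but present, once promoters with no control peak were set aside.

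Paired promoters were listed with control siRNA more often than the rest. Of all 9585 promoters, 70.5% were in the control list. Both genes of 284 of the 291 pairs were listed (97.6%, 95.1 to 99.0), against 68.8% of the other promoters, a difference of 28.8 percentage points (26.1 to 30.4). In the N-Myc-binding table, where 94.9% of all promoters were listed, all 199 pairs were (98.2% to 100%), against 94.1% of the others. In the non-binding table, where 58.0% of all promoters were listed, 82 of 89 pairs were (92.1%, 84.5 to 96.8), against 57.0% of the others, a difference of 35.1 points (27.5 to 39.3). Intervals here are over pairs or promoters of 1 library each and cover counting error only. The intervals of the differences are Newcombe intervals, and the number of reads behind a peak is unknown.

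Loss of the listing with WDR5 siRNA-1 was rarer among pairs. Among all promoters listed with control siRNA, 11.6% were control only. Of the 284 listed pairs, 9 were control only (3.17%, 1.46 to 5.93), against 767 of the 6194 other listed promoters (12.4%), a difference of -9.21 points (-10.9 to -6.36). In the N-Myc-binding table, with 4.18% control only in all, the values were 4 of 199 pairs (2.01%, 0.550 to 5.07) and 4.50% of the others, and the interval of the difference, -3.99 to 0.633 points, included 0. In the non-binding table, with 17.9% control only in all, they were 5 of 82 pairs (6.10%, 2.01 to 13.7) and 18.4% of the others, a difference of -12.3 points (-16.0 to -4.82). The pooled difference therefore came with the larger share of N-Myc-binding promoters among pairs, and within the classes, with pairs as units, it exceeded counting error only for non-binding promoters. A name in 1 list and not in the other can also be a peak close to the calling threshold, for which no height is given.

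**Figure D3:**
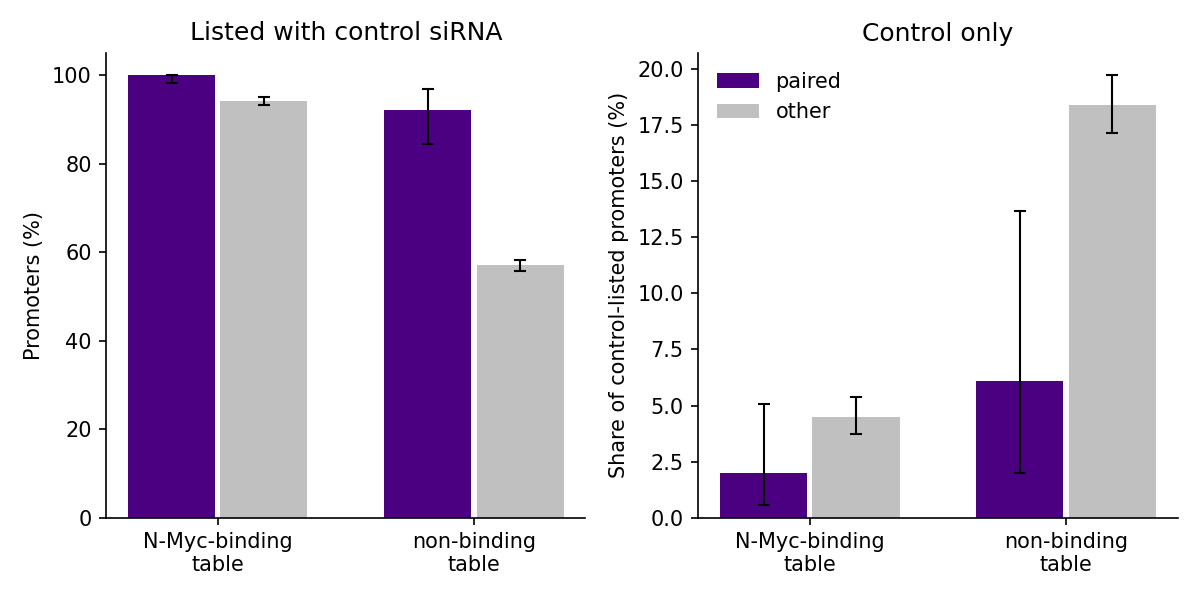
Shares of pairs (purple) and of other promoters (grey) listed with control siRNA (left, % of all) and listed with control siRNA only (right, % of those in the control list), for the N-Myc-binding and the non-binding table, with exact 95% intervals for counting error. Among non-binding promoters, 92.1% of pairs against 57.0% of other promoters were listed, and 6.10% against 18.4% of those were control only.

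No paired promoter was listed with WDR5 siRNA-1 only. Among all promoters missing from the control list, 1.35% were listed with WDR5 siRNA-1. Only 14 paired promoters, in 7 pairs, were missing from the control list. A count of 0 of 14 allows a share of up to 21.4% by 3 counts of the total, or 23.2% by the exact 95% bound. Both bounds count partners as separate units, and with the 7 pairs as units they would be higher. A difference from the rest was therefore not detectable at this number.

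The 9 pairs with both genes control only comprised 4 N-Myc-binding and 5 non-binding pairs, 64 to 611 bp apart. Among the N-Myc-binding ones, DTL (chromosome 1, 212208919), the CDT2 substrate receptor of the CUL4 ubiquitin ligase that acts in S phase, stood 83 bp from INTS7, a subunit of the Integrator complex. PDHX (chromosome 11, 34937677), the E3-binding component of the pyruvate dehydrogenase complex, stood 262 bp from APIP, an enzyme of methionine salvage. TMEM87A (chromosome 15, 42565755), a Golgi membrane protein, stood 611 bp from GANC, a neutral alpha-glucosidase. PARG (chromosome 10, 51371331), which removes poly(ADP-ribose), stood 64 bp from TIMM23, the channel subunit of the mitochondrial inner membrane translocase. The PARG/TIMM23 values are uncertain, because in RefSeq GRCh38.p14 these genes start 3969538 bp apart and TIMM23 has a near-identical copy to which reads can also align. Without this pair, 8 of 283 listed pairs remained control only.

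The 5 non-binding control-only pairs were of mixed function. KIF4A (chromosome X, 69509879), a chromosome-associated kinesin of mitosis, stood 81 bp from PDZD11, a PDZ-domain protein. CHDH (chromosome 3, 53880420), the choline dehydrogenase of mitochondria, stood 157 bp from IL17RB, a receptor for interleukins of the IL-17 family. NAGS (chromosome 17, 42082032), which makes the N-acetylglutamate that activates the urea cycle, stood 195 bp from PYY, the gut hormone peptide YY. TRPC5 (chromosome X, 111326004), a calcium-permeable cation channel found in neurons, stood 249 bp from ZCCHC16, a gene derived from a retrotransposon. KCTD19 (chromosome 16, 67360661), a BTB-domain protein of meiosis, stood 86 bp from LRRC36, a leucine-rich repeat protein. By RefSeq strand and deposited order, CHDH/IL17RB, PYY/NAGS, PDZD11/KIF4A and TMEM87A/GANC were head to head with starts apart. On the same basis, DTL/INTS7 and PDHX/APIP overlapped at their 5′ ends. For TMEM87A/GANC the RefSeq starts were 422 bp apart, and for KCTD19/LRRC36 and TRPC5/ZCCHC16 no orientation was found.

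The 7 pairs in neither list were all in the non-binding table. They comprised ABCG5/ABCG8 (145 bp), the partners of the intestinal and hepatic sterol transporter, and COL4A4/COL4A3 (6 bp), collagen chains of specialised basement membranes. PLCZ1/CAPZA3 (52 bp) are genes of sperm, a phospholipase and an actin-capping subunit. DMGDH/BHMT2 (98 bp) are genes of choline and methionine metabolism in liver. The others were RNASE11/RNASE12 (565 bp), of the ribonuclease A family, TMEM176B/TMEM176A (233 bp), and BPI/KIAA1755 (597 bp), with BPI a bactericidal protein of neutrophils. The paralogous collagen pair COL4A1/COL4A2 (135 bp), also non-binding, was listed in both libraries, and COL4A6/COL4A5, 1416 bp apart and so outside the limit, was in neither list.

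Of all paired promoters, 94.5% were listed in both libraries (550 of 582, 92.3 to 96.2). The paired members of the gene groups below stood near the share of all pairs, so their listing is not a result about the groups. Of 56 listed genes of the mitochondrial ribosome, 16 were paired (28.6%, against 6.07% of all promoters), and all 16 were listed in both libraries. The 40 unpaired members were also all in the control list. The paired ones included MRPL46 and MRPS11, which share 1 promoter region, MRPL47 with the complex I gene NDUFB5, MRPL51 with the condensin gene NCAPD2, and MRPL18 with the chaperonin gene TCP1. Of 60 genes of the respiratory chain and mitochondrial import, 14 were paired (23.3%), and 13 of these were listed in both libraries, TIMM23 being control only. NDUFS3, COX11, COX15, ATP5F1 and ATP5J were among the 13. Of 59 cytosolic ribosomal protein genes, 8 were paired (13.6%), among them RPS28, RPL4, RPL9, RPL12, RPL15 and RPS25, all N-Myc-binding and all listed in both. Of the 51 unpaired ones, 50 were N-Myc-binding too.

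DNA repair genes were paired in 15 of 65 cases (23.1%), 11 of them N-Myc-binding, and all 15 were listed in both libraries. Of the 50 unpaired ones, 49 were in the control list and 29 were N-Myc-binding. The paired ones included CHEK2, a checkpoint kinase, paired with the iron-sulfur cochaperone gene HSCB, XPC, of nucleotide excision repair, paired with LSM3, and RPA1, the large subunit of the single-strand binding protein, paired with SMYD4. WRN, a RecQ helicase, and PMS1, of mismatch repair, were paired non-binding promoters. Of 34 genes of DNA replication and the cell cycle, 5 were paired (14.7%), among them MCM4, MCM7, POLE and AURKA, all N-Myc-binding and all listed in both. Among the 29 unpaired ones, 25 were N-Myc-binding. Zinc finger genes with ZNF names were paired in 9 of 127 cases (7.09%), all listed in both, among them the neighbours ZNF146 and ZNF565.

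No paired promoter belonged to the 36 HOX genes or to the 16 genes of the neural and neuroblastoma lineage in the tables. At the share of all promoters, 2.19 HOX genes and 0.972 lineage genes would be paired, so these counts of 0 are near that share. Genes with open reading frame or KIAA names were paired in 23 of 243 cases (9.47%), 22 of them listed in both and KIAA1755 in neither. ZBTB8OS, opposite RBBP4, and SLC7A6OS, opposite PRMT7, were the only paired genes with opposite-strand names, and both pairs were listed in both libraries. The tables hold 1 row per gene name, with no small RNA names and 4 LOC, LINC or accession-style names, so pairs of a coding gene with a noncoding RNA are largely absent by construction.

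Of 23 gene pairs on a list of candidate shared promoters, 6 were pairs in the tables, and all 6 were listed in both libraries. They included GART/SON (886 bp), with GART of purine synthesis, MCM4/PRKDC (20 bp), SURF1/SURF2 (60 bp), COL4A1/COL4A2 (135 bp) and SERPINI1/PDCD10 (781 bp). For 14 of the other pairs on the list 1 gene was in the tables, and for 3 neither was. The distance between the genes was not checked for these pairs, so some of them may not share a promoter region. BRCA1 and NBR2 were both in the control list only, as were the thymidine kinase gene TK1 and AFMID, although neither pair had both genes in the promoter tables. Of the 17 pairs of this list outside the paired set, 12 had the same call for both genes, 10 of them in both libraries. The other 5 had unlike calls, including HSPD1/HSPE1, with HSPD1 in both lists and HSPE1 in neither, and LDHA/LDHC, with LDHA control only and LDHC in neither. FEN1/C11orf10 and NFYA/C6orf130 were also among the 5, but names were matched as written, without synonyms. C11orf10 and C6orf130 can stand in the lists under other names. By RefSeq, FEN1 had the neighbour TMEM258 (312 bp) and NFYA had OARD1 (360 bp), all in both lists.

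Many more promoters have a close neighbour that the tables do not list. By RefSeq windows, 450 of the promoters without a listed partner had the start of another protein-coding gene, absent from the tables, on the opposite strand within 1 kb, and for 388 of these the neighbour was named in at least 1 peak list. Over all 450 the call was the same in 371 (82.4%, 78.6 to 85.8). The other 62 neighbours were in neither list, 47 of them beside a promoter listed in both, and such a gene can also stand in the lists under another name. Among the 388, which were chosen by having a listing, the call was the same in 360 (92.8%). Of the 450, 27 had at least 1 control-only gene, and in 10 of these both genes were control only, such as POLR2A, the large subunit of RNA polymerase II, with ZBTB4 (117 bp in RefSeq), MAD2L2 with DRAXIN (151 bp) and SMC1B, a meiotic cohesin subunit, with RIBC2 (94 bp). In the other 17 of the 27 the partner's call differed, as for DLG2, control only, with TMEM126B in both lists. Unlike calls also included ERBB2, a receptor tyrosine kinase gene in neither list, with PGAP3, 37 bp away, in both. These examples were chosen after their values were seen, and the authors' start site for a gene can differ from that in RefSeq.

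The control-only share of listed promoters was 3.17% for paired promoters (18 of 568), 4.29% for those with an unlisted RefSeq neighbour (18 of 420, 2.56 to 6.69) and 12.1% for those with no such neighbour found (558 of 4619, 11.2 to 13.1). Within the non-binding table the shares were 5.99% (2.91 to 10.7), 7.02% (3.68 to 11.9) and 17.9% (16.4 to 19.4). Within the N-Myc-binding table they were 2.00% (0.865 to 3.89), 2.41% (0.889 to 5.17) and 4.46% (3.60 to 5.46). Partners count singly in the intervals of paired promoters, which are therefore too narrow. With pairs of 1 class as units, these intervals were 0.550 to 5.07% (N-Myc-binding) and 2.01 to 13.7% (non-binding). In both tables promoters with an unlisted neighbour lay between the other groups, and their interval overlapped that of paired promoters. In the N-Myc-binding table it also overlapped that of promoters with no such neighbour.

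Partners also stood close together in the row order of the tables. The tables are named as H3K4me3 quantification but hold only names and coordinates, so row position is a rank of unstated meaning. Of the 288 pairs within 1 table, 56 stood on adjacent rows and 178 within 10 rows of each other, with a median gap of 6 rows. SURF1 and SURF2 stood on rows 929 and 928, and COL4A4 and COL4A3 on rows 3686 and 3687. The gap was within 1% of the table's length for 228 pairs. The median gap widened with distance, from 0.0615% of the table at 100 bp or less to 2.43% beyond 500 bp, and it was 24.4% at 1 to 2 kb and 28.6% at 2 to 5 kb.

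The 12 pairs more than 10% of a table apart were all at 234 bp or more. TCP1/MRPL18 stood on rows 923 and 2363 at 757 bp, RPL12/LRSAM1 on rows 67 and 954 at 823 bp, and GART/SON on rows 2478 and 2087 at 886 bp. The partners in all 12 pairs were listed in both libraries, although their row positions differed.

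Paired promoters stood nearer the top of the tables than the rest. Their median row position was 40.0% of the N-Myc-binding table, against 51.4% for other promoters, and 18.7% of the non-binding table, against 51.1%. Row position also moved with the calls. Among the other non-binding promoters the median position was 24.3% for those listed in both, 51.5% for control-only ones and 78.4% for those in neither list. Between 25% and 50% of the way down the non-binding table, 6 of 53 listed paired promoters were control only (11.3%, 4.27 to 23.0), against 262 of 1525 others (17.2%, 15.3 to 19.2), and between 50% and 75% they were 4 of 8 against 371 of 472. Beyond 75% of the N-Myc-binding rows, 4 of 58 were control only (6.90%, 1.91 to 16.7), against 117 of 591 (19.8%, 16.7 to 23.2). Within these bands of the non-binding rows the difference was thus inside the counting error, and partners enter these counts as single promoters. Between 25% and 50% of the N-Myc-binding rows, 2 of 106 paired promoters, PARG and TIMM23, were control only, against 0 of 707 others.

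**Figure D4:**
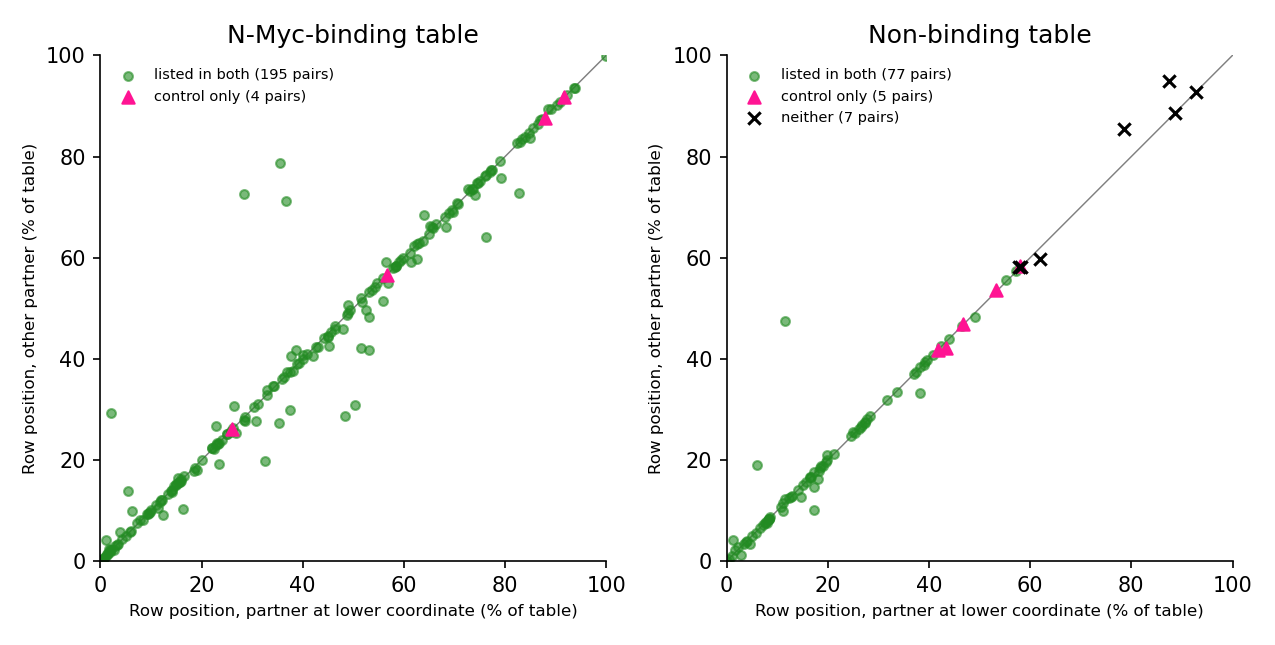
Row position of the partners of each pair as a percentage of their table (lower-coordinate partner on the horizontal axis, other partner on the vertical axis), for the 199 N-Myc-binding and 89 non-binding pairs, coloured by their shared call. Most points lie on the diagonal, with a median gap of 6 rows, and pairs in neither list sit at 57.8% or beyond in the non-binding table.

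The promoter sequences of pairs differed from those of other promoters in a few short motifs. RefSeq windows from 250 bases before to 50 bases after the start were found for 481 of the 582 paired promoters and for 7207 of the others, and each motif was searched on both strands. The windows of partners overlap, so these counts are not independent. The ETS-type motif CCGGAAG occurred in 28.9% of paired windows (24.9 to 33.2), in 13.8% of others (13.0 to 14.6) and in 10.7% of all 27305 RefSeq windows. TATAAA occurred in 2.49% of paired windows (1.30 to 4.32), in 8.91% of others (8.26 to 9.59) and in 3264 of the 27305. CCAAT occurred in 42.0% (37.5 to 46.5), 36.0% (34.9 to 37.1) and 35.7%. GCATGCG, part of the NRF1 motif, occurred in 7.48%, 5.34% and 4.13%, and TGACGTCA, the full CRE, in 4.57%, 2.78% and 1.98%. GGGCGG, the GC box, occurred in 68.2%, 60.9% and 44.6%, and the median window held 26, 24 and 14 CpG dinucleotides. Within the N-Myc-binding table these features ran the other way, with GGGCGG in 70.2% of paired (65.0 to 75.0) and 73.6% of other windows (71.8 to 75.4) and medians of 26 and 28 CpG dinucleotides. Within the non-binding table GGGCGG occurred in 63.4% (54.9 to 71.3) and 54.7% (53.3 to 56.1), with medians of 26 and 20. GCATGCG occurred in 9.14% of paired and 8.51% of other N-Myc-binding windows and in 3.52% and 3.79% of non-binding ones, so within the classes it differed by less than the counting error. TATAAA occurred in 2.95% of paired (1.42 to 5.36) and 5.22% of other N-Myc-binding windows (4.36 to 6.20), with overlapping intervals. In non-binding windows it occurred in 1.41% and 10.7%, with intervals that did not overlap. CCAAT occurred in 42.2% and 36.2% of N-Myc-binding windows and in 41.5% and 35.9% of non-binding ones. TGACGTCA occurred in 5.01% and 3.66%, and in 3.52% and 2.34%. For CCAAT and TGACGTCA the intervals overlapped within each class.

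The difference in CCGGAAG was larger in the non-binding table, with 31.0% of paired (23.5 to 39.3) against 10.1% of other windows (488 of 4833). In the N-Myc-binding table the shares were 28.0% (23.3 to 33.1) and 21.4% (19.7 to 23.1). This difference between tables was not tested. Paired non-binding promoters were also listed with control siRNA more often than the others (92.3% against 57.0%). Motif shares of the other promoters were not split by listing. The E-box CACGTG occurred in 12.9% of paired windows (10.0 to 16.2), in 9.09% of others (8.43 to 9.78) and in 7.43% of all. Split by class it occurred in 17.4% of paired and 14.7% of other N-Myc-binding windows, with overlapping intervals, and in 2.11% of paired (0.438 to 6.05) and 6.35% of other non-binding windows (5.68 to 7.08). The general E-box CANNTG, which includes CACGTG, occurred in 65.1%, 63.4% and 68.9% of paired, other and all windows. Of 14 windows of control-only paired promoters, 1 held CACGTG, 5 held CCGGAAG and none held TATAAA, and 12 windows of promoters in neither list had a median of 17 CpG dinucleotides, against 26 for all paired windows. A match is a count of letters and does not show that a factor binds there.

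**Figure D5:**
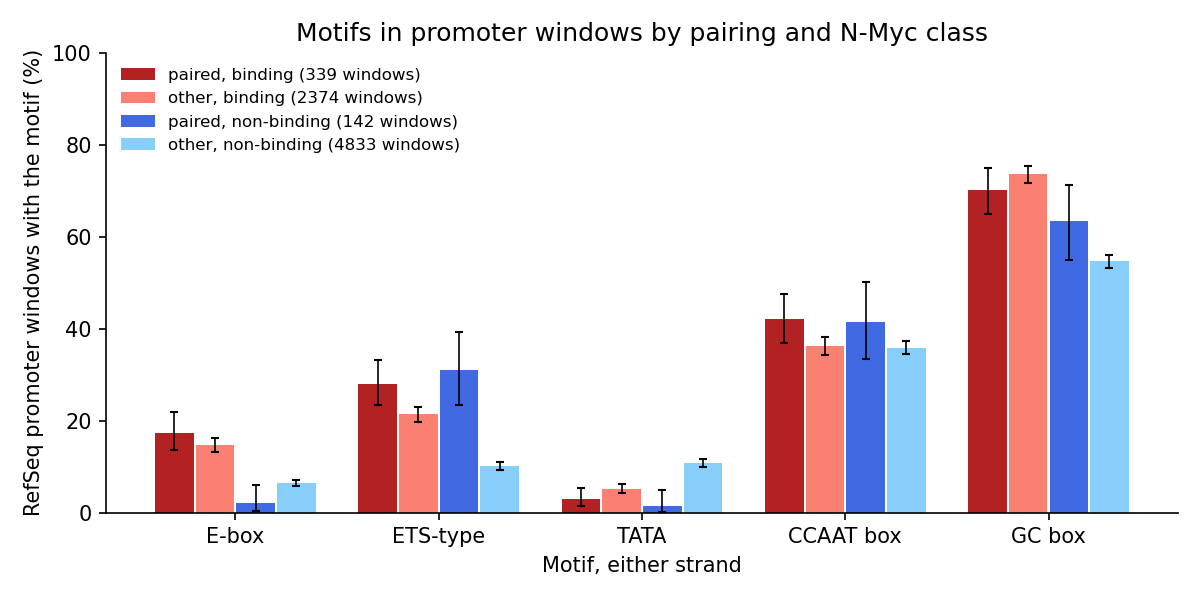
Share of RefSeq promoter windows of 300 bases that hold each motif on either strand (vertical axis, %), for paired and other promoters of the N-Myc-binding and the non-binding table, with exact 95% intervals for counting error. The ETS-type motif is in 31.0% of paired against 10.1% of other non-binding windows, and the E-box in 17.4% of paired N-Myc-binding windows against 2.11% of paired non-binding ones.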

How the data were processed

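H3K4me3 ChIP-seq was deposited for 1 library per siRNA. The authors deposited 2 promoter tables, whose rows hold a gene name and a 1 bp interval at its TSS, and a list of gene names per H3K4me3 library with a peak within 1 kb of the TSS, per the file headers. No column holds a measured value. The submitters' processing notes name BWA 0.7.12, bedtools and hg19; for peak calling, the method is not given in the sources used.

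Gene names joined promoters to peaks, so a peak at another start of a gene can count. Partners were listed start sites at 1000 bp or less. Shares carry exact (Clopper-Pearson) 95% intervals and differences Newcombe intervals (Python 3.11.15, scipy 1.17.1). No p-value is given. Pairing was tested on simulated positions. RefSeq names of GRCh38.p14 matched 9562 of 9585 promoters (580 of 582 paired), and 7688 had a window. The pairs named were those with unlike or control-only calls, unlike classes, candidate shared promoters and up to 6 genes per gene group. Other pairs were chosen after their values were seen. Some named pairs are not reported here. Members and lists were chosen with earlier results of these data known. Alternatives were other distance limits, denominators and subsets of pairs.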

Additional observations from a re-analysis of the deposited data

How the results depend on the processing

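Of 45 alternative values, 42 stayed within the 95% interval of the reported value (or at the same count) and none reversed. The alternatives for call agreement and for promoters listed with WDR5 siRNA-1 only could not move. They took subsets of the same pairs, or merged calls that were already alike, so they do not show robustness. Limits of 500 and 300 bp left 252 and 210 pairs, with call agreement necessarily at 100%. The control-only share was 3.24% and 3.90% of paired promoters. On autosomes only the control-only share was 2.58%, and without PARG/TIMM23, an alternative chosen after seeing the data, 2.83%. The difference in control-only share between paired and other promoters, -9.21 points, moved to -5.43 points with all promoters as denominator. In alternatives also chosen after seeing the data it was -2.51 points in the N-Myc-binding table and -12.4 points in the non-binding table, with promoters as units. Leaving out noncoding names, or clusters over 2 promoters, removed no pair. Taking 1 promoter per cluster left the shares unchanged, since partners had like calls. These alternatives could move the values little or not at all, so the count of 42 is not a measure of robustness. No paired analysis was possible because each siRNA has 1 library. The depth behind each peak call is unknown, so a lost listing cannot be given a size, and library error cannot be estimated. Gene names turned into numbers by a spreadsheet (20 in the control list) match no promoter.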
